A study of Caenorhabditis elegans with 4 samples.

Results

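The regions described are the 298 peaks on chromosome II of Caenorhabditis elegans in the series-wide peak list of a ChIP-seq experiment against RPC-1, out of 2173 peaks on all 6 nuclear chromosomes. They were chosen from that list by chromosome name alone, so among called peaks neither strength nor reproducibility entered the choice. RPC-1 is the biggest of the subunits that form RNA polymerase III. The ChIP libraries (n = 2, replicates 1 and 2) and the input libraries (n = 2, sonicated chromatin set aside before the precipitation) all came from whole young adult hermaphrodites of strain N2, wild type, grown at 20 °C and fixed with 2% formaldehyde. Nothing in the labels says whether the replicates were separate worm cultures, and whole worms mix all tissues. The sources used here do not name the antibody that precipitated RPC-1; the protocol text describes antibodies against GFP and against RNA polymerase II, and N2 carries no GFP tag. The inputs have no file of their own here, so ChIP against input was not tested.

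RNA polymerase III makes short non-coding RNAs: transfer RNAs, 5S ribosomal RNA, U6 spliceosomal RNA and the RNA parts of RNase P and RNase MRP. At tRNA genes, the factor TFIIIC binds promoter elements inside the gene, called the A box and the B box, and places TFIIIB, which then recruits the polymerase. Since the genes are short, the polymerase is confined to a short stretch of DNA at each one. In C. elegans, tRNA genes are concentrated on the X chromosome. Chromosome II is an autosome and, like the other worm autosomes, has gene-rich central DNA between arms that recombine more and hold more repeats.

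Of 612 nuclear tRNA genes, 57 (9.31%) are on chromosome II by the RefSeq gene table of assembly WBcel235, the fewest of any chromosome. The same table puts 16 of 129 snRNA genes and 71 of 346 snoRNA genes on II. Its rRNA genes are on I (5) and V (15), and none is on II. The RNase MRP RNA gene, mrpr-1, is on II, whereas the RNase P RNA gene, rpr-1, is on I and the Y RNA gene, yrn-1, is on IV. Peak positions are on WormBase WS220, another assembly, so no peak was assigned to a gene and no sequence of a peak is shown. Below, a peak is named by its position, and the counts of genes serve only as the number each chromosome carries.

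Each peak has one deposited number, a p-value or q-value from the PeakSeq caller (the files do not say which). This caller value is given here as −log10, so that a larger number means a more significant peak. Peaks were ranked by it within their own list, rank 1 being the best. The largest caller value on II was 0.00093 series-wide, 0.000949 in replicate 1 and 0.000946 in replicate 2. Depth cannot be read from lists without counts, so a region missing from a list was not called there, which does not measure absence of the polymerase.

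Chromosome II had 19.5 series-wide peaks per Mb of its 15.3 Mb span (from its first base to the end of its last peak), against 22.1 per Mb over the other chromosomes together. The other autosomes alone had 21.5 per Mb, a difference of −1.96. Counting error for II was about 2.25 per Mb to either side, and density was not tested. Only I was sparser (16.7 per Mb), and the others ran between 21.4 (IV) and 26.8 (III). The 298 peaks covered 127 kb, or 0.833% of the span, against 0.931% on the other chromosomes. The series-wide rank of the II peaks ran from 10 to 2166, with quartiles at 611, 1129.5 and 1620, and their −log10 caller value had quartiles at 4.48, 8.81 and 34.8. None of the 7 series-wide peaks listed at a value of 0 lay on II. Among the best 100 peaks of the series, 13 were on II and 52 on X.

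The strongest peak of the chromosome, II:12541332-12543145, ranked 10 in the series with a −log10 value of 314.1. It spanned 1814 bp and covered 2 separate peaks in either replicate. In replicate 1 these had −log10 values of 62.3 and 49.1 (ranks 78 and 138 of 1009). In replicate 2 they had 146.2 and 104.1 (ranks 75 and 181 of 2041). In neither replicate was this region the best of the chromosome, and its series-wide rank is that of the joined region. The next, II:5781571-5782470, was a single peak of 900 bp with a −log10 value of 233.8 series-wide (rank 24), 82.8 in replicate 1 (rank 30) and 208.7 in replicate 2 (rank 19), where it led the chromosome. II:11759123-11759658 had 224.5 series-wide (rank 28), 114.1 in replicate 1 (rank 10) and 208.1 in replicate 2 (rank 21). It led the chromosome in replicate 1 and was narrow for its rank, at 536 bp. II:14804151-14804957, 97.0% of the way along the span, had 209.0 series-wide (rank 37), 78.5 in replicate 1 (rank 42) and 160.4 in replicate 2 (rank 55). II:3518720-3519554 had 200.9 series-wide (rank 43), 73.1 in replicate 1 (rank 54) and 173.4 in replicate 2 (rank 41). After these 5 came a step down to rank 77. The other 5 of the 10 best, II:13834151-13835569, II:8075169-8075863, II:7199971-7200692, II:13780343-13781327 and II:5104820-5105517, had nearly equal series-wide values between 166.0 and 168.0 (ranks 77 to 81). Their ranks were 57 to 133 in replicate 1 and 60 to 95 in replicate 2. All 10 were thus called in both replicates, and they were spread over the span, the first at 23.1% and the last at 97.0% of it. The −log10 values of all 10 were larger in replicate 2, which also has the longer list.

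In its share of strong peaks, II was close to most other autosomes and far below X. When the list was divided by rank into 5 equal groups (quintiles), the best quintile had 50 II peaks and the next ones 62, 68, 63 and, for the worst, 55. The best quintile thus held 16.8% of the II peaks (95% Wilson interval 13.0 to 21.4) and 20.5% of the 1875 peaks elsewhere (18.8 to 22.4). The difference was −3.75 points, with a Newcombe interval from −8.01 to 1.23 (two-sided Fisher's exact test, adjusted p = 0.42). With X left out the difference changed sign, to 2.71 points (Fisher's exact test, adjusted p = 0.58). By chromosome, 16.8% on II was above the 11.4% (V) to 16.3% (IV) of the other autosomes and below the 42.1% of X. The Wilson interval of II held the shares of I (15.5%), III (14.1%) and IV, and left out that of V. The 6 main Fisher's tests of II peaks were adjusted together by Benjamini-Hochberg. They count peaks of the same libraries, which are not biological replicates and not independent of their neighbours, so their p-values are too small.

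Set beside the gene counts, 50 of the 435 best-quintile peaks lay on II (11.5%, interval 8.83 to 14.8), where the share of tRNA genes is 9.31% and that of the span 15.2%. The interval leaves out the share of the span and holds that of the tRNA genes. On autosomes alone, II had 50 of 253 best-quintile peaks (19.8%, 15.3 to 25.1), 17.0% of 336 tRNA genes and 18.5% of the span, and the interval held both shares. The order of the chromosomes in these counts does not say which peaks lie on tRNA genes.

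Replicate overlap of the II peaks followed rank closely. Of the 298, 123 overlapped (by at least 1 bp) peaks of both replicates, which is 41.3% (35.8 to 46.9) beside 42.3% over the whole list. Replicate 2 alone met 109 (36.6%, against 37.5% over the whole list), replicate 1 alone 15 (5.03%, against 3.22%) and neither list 51 (17.1%, 13.3 to 21.8, against 17.0%). In the best quintile, 49 of 50 II peaks were in both replicates, and in quintile 2, 56 of 62. The share then fell to 17 of 68 in quintile 3 and 1 of 63 in quintile 4, and no peak of the worst quintile was in both. The break came within quintile 3, where 42 of 68 peaks met replicate 2 alone. On the other chromosomes the share in both was 22.7% in that quintile. The replicate 1 list had 1009 peaks and the series-wide list 2173, which limits how many peaks can be in both. The place of the break was not separated from this difference in length. Of the 51 peaks in neither list, 37 were in the worst quintile and 13 in quintile 4.

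**Figure D1:**
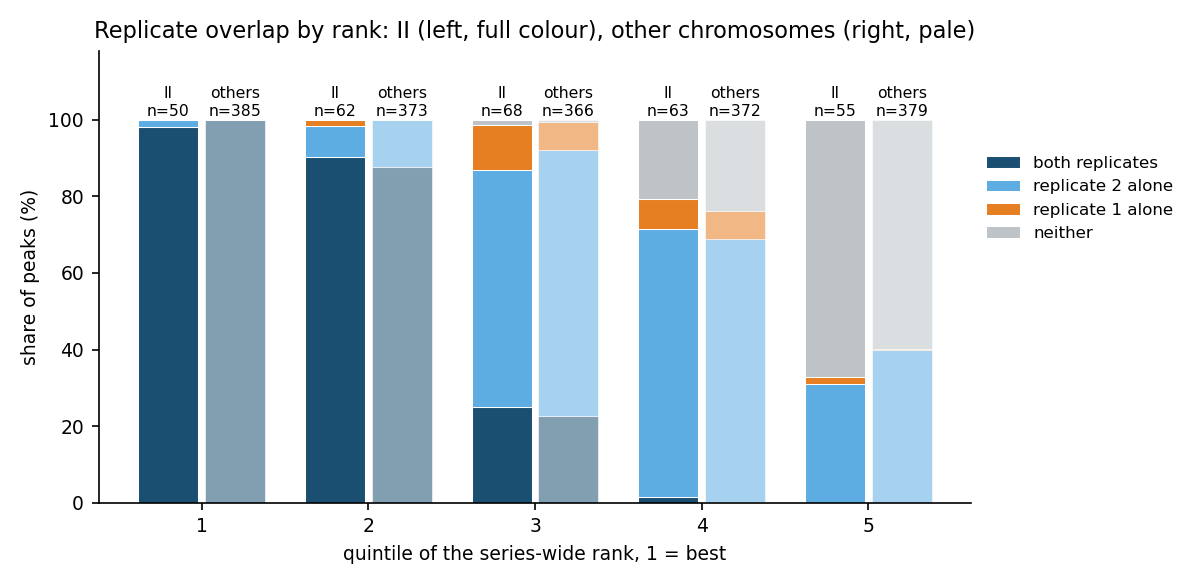
Share of series-wide peaks (y axis, %) that overlapped both replicate lists, replicate 2 alone, replicate 1 alone or neither, for each quintile of the series-wide rank (x axis), with II on the left of each pair and the other chromosomes on the right; n is the number of peaks. On II the share in both was 98.0% in the best quintile, 90.3% in quintile 2 and 25.0% in quintile 3, and elsewhere 100%, 87.7% and 22.7%.

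The share found in both replicates was 41.3% on II and 42.5% elsewhere. The interval of the difference, −1.18 points, held 0 (−7.07 to 4.91; adjusted p = 0.9 by Fisher's exact test). In neither list were 17.1% of II peaks and 17.0% of those elsewhere (0.154 points, −4.08 to 5.12; Fisher's exact test, adjusted p = 0.93). When every list was restricted to its better 50%, the difference in neither was larger, with 13.4% on II and 7.52% elsewhere; the interval of its 5.86 points left out 0 (0.856 to 12.6), but the test did not pass adjustment (Fisher's exact test, adjusted p = 0.096). The share in both was then 39.4% on II and 45.9% elsewhere (−6.43 points, −14.7 to 2.37; adjusted p = 0.35 by Fisher's exact test). With X left out, the share in both became 41.3% on II and 36.1% on the other autosomes (5.17 points, −0.826 to 11.3; Fisher's exact test, adjusted p = 0.28). II had the largest share in both replicates of any autosome, the others lying between 32.7% (V) and 38.2% (III), below the 63.7% of X. No pair of single chromosomes was tested.

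The replicate lists had 141 peaks on II in replicate 1 (14.0% of that list) and 275 in replicate 2 (13.5%). Of the 141, 126 overlapped a replicate 2 peak (89.4%, 83.2 to 93.4), against 93.3% (91.5 to 94.8) on the other chromosomes. These intervals overlap, and the difference was not tested. Of the 275, 124 overlapped a replicate 1 peak (45.1%, 39.3 to 51.0), against 45.0% elsewhere. By quintile of the own list, replicate 1 peaks on II were found in replicate 2 in 27 of 27, 20 of 20, 27 of 28, 26 of 32 and 26 of 34 cases, from the best to the worst. Replicate 2 peaks on II were found in replicate 1 in 47 of 48, 50 of 55, 19 of 57, 5 of 62 and 3 of 53 cases. Every one of the 141 replicate 1 peaks was in the series-wide list, and so were 230 of the 275 replicate 2 peaks (83.6%). The 45 that were not were weak, the best of them, II:8481058-8481313, ranking 1293 of 2041 with a −log10 value of 5.70.

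At the 126 pairs of overlapping replicate peaks on II, the order was alike, with Spearman's rho = 0.922 for the caller values, beside 0.947 over the 810 pairs elsewhere. This is a description across peaks of the same pair of libraries. The pairs use 124 replicate 2 peaks, because II:1477286-1478387 and II:8418697-8421568 each enter 2 pairs. The median −log10 value was 14.3 in replicate 1 and 39.5 in replicate 2, and in 121 of 126 pairs (96.0%) the replicate 2 value was the more significant. The pairs were also wider in replicate 2 in 117 of 126 cases (92.9%), with a median width of 530 bp there and of 384 bp in replicate 1. As a share of the list, the rank differed most at II:4904264-4904492 (rank 979 of 1009 in replicate 1, 702 of 2041 in replicate 2), II:12539380-12539657 (948 and 644) and II:1102351-1102608 (1008 and 801). All 3 were among the last peaks of replicate 1, with −log10 values of 3.02 to 3.45, and had 15.9 to 26.3 in replicate 2. The measure moves with the unequal length of the lists, since the share of the list was smaller in replicate 2 at 122 of the 126 pairs, so these 3 are named without reading a shift from them. Ranked among the 126 pairs alone, they stood at 123 in replicate 1 and 91 in replicate 2, at 120 and 83, and at 126 and 99. By that ranking, computed after the values were seen, II:12223287-12224961 differed more and in the other direction, at 72 in replicate 1 and 124 in replicate 2. The second of them lies beside the strongest peak of the chromosome, less than 2 kb to its left.

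**Figure D2:**
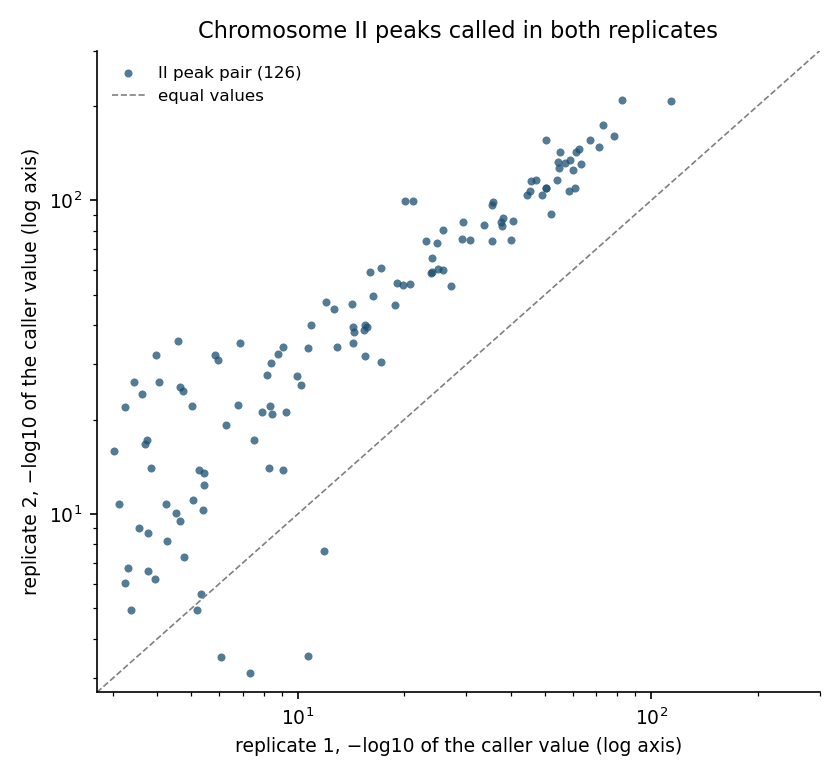
−log10 caller value in replicate 1 (x axis, log) and replicate 2 (y axis, log) for the 126 pairs of overlapping chromosome II peaks; each point is a pair and the dashed line marks equal values. In 121 pairs the point is above the line, with values more significant in replicate 2, and 5 pairs lie below it.

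The 5 pairs that were more significant in replicate 1 stood out against this background and were picked after their values were seen. The replicate 1 peak II:12223287-12224961 had a −log10 value of 10.7 (rank 593) over 1675 bp, the widest replicate 1 peak on II, and its replicate 2 partner, II:12224526-12225076, had 3.54 (rank 1731) over 551 bp. II:8184987-8185282 had 11.9 in replicate 1 and 7.61 in replicate 2. The others were II:14349444-14349703 (7.34 in replicate 1 and 3.12 in replicate 2), II:3076995-3077264 (6.05 and 3.51) and II:14561656-14561868 (5.17 and 4.93). Right beside the first of these lies the best replicate 1 peak on II that replicate 2 lacks, II:12225281-12226531, with a −log10 value of 10.3 (rank 604) over 1251 bp. The next replicate 1 peaks that replicate 2 lacks were weaker: II:11874619-11874922 (7.18, rank 686), II:13872451-13872744 (7.11, rank 692), II:10868755-10869018 (6.89, rank 701) and II:5055231-5055597 (6.53, rank 717). All 5 were in the series-wide list, at ranks between 829 and 1204.

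In the other direction, 1 strong region was missing from replicate 1. II:7779200-7781241 ranked 37 of 2041 in replicate 2, with a −log10 value of 177.5 over 2042 bp, and had no overlapping peak in replicate 1. Its series-wide counterpart, II:7779214-7781209, ranked 129 with 139.6, and was the one II peak of the best quintile that was not in both replicates. The next best replicate 2 peak that replicate 1 lacks was II:10387646-10388316, at rank 724 with 20.6. It was followed by II:753534-753869 (19.8, rank 734), II:10303675-10304051 (18.3, rank 756) and II:7708507-7708876 (17.4, rank 771). Between ranks 37 and 724, each replicate 2 peak on II was also called in replicate 1.

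Peaks in neither replicate list were weak but not all narrow. The best 3 on II were II:8745908-8746852 (945 bp, −log10 value 6.44, rank 1303), II:9112715-9113105 (391 bp, 5.93, rank 1363) and II:1320497-1320998 (502 bp, 5.93, rank 1364). The median width of the 51 was 216 bp, against 525 bp for the 123 in both, 265 bp for the 109 in replicate 2 alone and 299 bp for the 15 in replicate 1 alone. Elsewhere the same classes had 198.5, 545.5, 279 and 288 bp.

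Width fell with rank on II as on the other chromosomes, and at like rank the medians were near each other. The median over all II peaks was 349.5 bp, against 367 bp elsewhere and 345 bp on the other autosomes alone. By quintile, from the best to the worst, it was 715, 461.5, 313.5, 223 and 205 bp on II and 631, 458, 329.5, 243.5 and 193 bp elsewhere. The II median was the larger in quintiles 1, 2 and 5 and the smaller in 3 and 4, and the difference was widest in the best quintile; none was tested. A tRNA gene is shorter than nearly all of these peaks. At the narrow end, 9 II peaks (3.02%) were under 50 bp, the narrowest of them 3 bp, against 58 (3.09%) elsewhere. Those 9 ranked between 1567 and 2094, 7 were in neither replicate list and the other 2 in replicate 2.

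The widest II peaks were II:8418682-8421568 (2887 bp), II:7779214-7781209 (1996 bp), II:12541332-12543145 (1814 bp), II:13834151-13835569 (1419 bp) and II:12225281-12226550 (1270 bp). The first, also the widest of the whole series, ranked 143 with a −log10 value of 133.2. It was 1 peak of 2872 bp in replicate 2 (99.4, rank 201) and 2 peaks of 1012 and 1406 bp in replicate 1 (21.2 and 20.1, ranks 430 and 443). In replicate 1 these 2 peaks were 42.6% and 43.9% of the way down the list, although the joined region was in the best quintile series-wide. The second and the last of the 5 were each called in 1 replicate, II:7779214-7781209 in replicate 2 and II:12225281-12226550 in replicate 1. Of the 298 peaks, 3 covered 2 replicate 1 peaks each: II:8418682-8421568, II:12541332-12543145 and II:1477311-1478365. Conversely, 3 replicate 2 peaks on II each covered 2 series-wide peaks: II:14640967-14641649, II:13990378-13990999 and II:10381487-10382079. Start and end were identical to those of a replicate 2 peak at 3 series-wide peaks on II, and to those of a replicate 1 peak at 0.

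**Figure D3:**
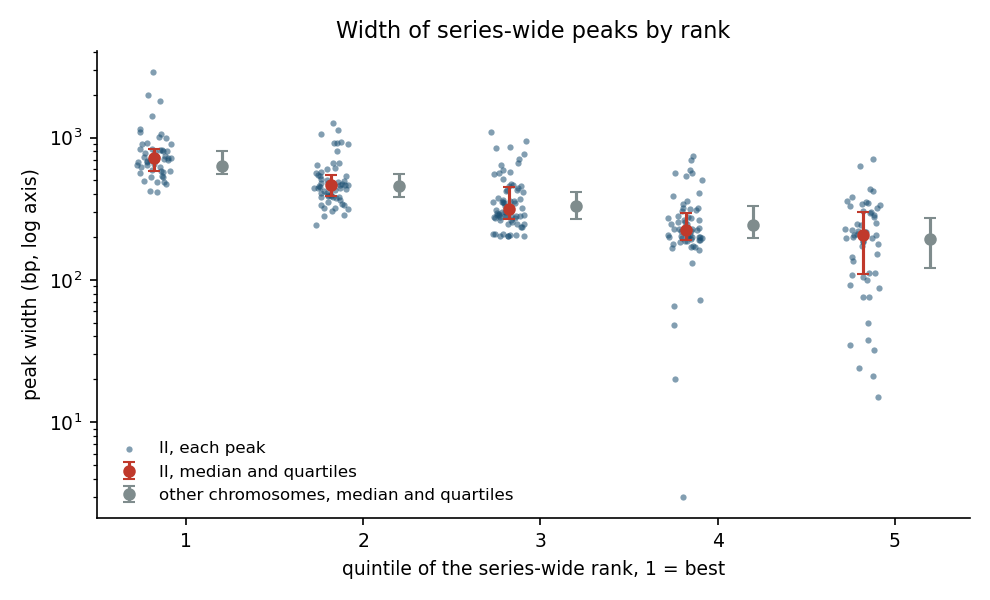
Width of series-wide peaks (y axis, bp, log) by quintile of the series-wide rank (x axis), with each II peak as a small point, the II median with quartiles in red on the left and the median with quartiles of the other chromosomes in grey on the right. The II median was 715 bp in the best quintile and 205 bp in the worst, and the quartile ranges of II and the others overlapped in every quintile.

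Along chromosome II the peaks were evenly divided between 3 equal segments of the span, whose limits are not mapped boundaries of arms and centre. The left, the middle and the right segment held 98, 98 and 102 peaks, or 19.3, 19.3 and 20.0 per Mb. The middle segment thus had 32.9% of the II peaks (27.8 to 38.4), beside 30.4% over the whole list, and 30.0% on the other chromosomes (difference 2.91 points, −2.60 to 8.80; Fisher's exact test, adjusted p = 0.58). Of the peaks in the tight runs described below, the middle segment held 3 and the outer segments 38. Peaks within 2 kb of each other were also counted once, a setting added after the data were seen. The middle segment then held 36.3% of 245 II regions, against 30.8% elsewhere (5.48 points, −0.729 to 12.0, adjusted p = 0.27 by Fisher's exact test). Strong peaks were less evenly placed, though this was not tested: 22 of the 98 peaks of the middle segment (22.4%), 10 of 98 in the left segment (10.2%) and 18 of 102 in the right segment (17.6%) were in the best quintile. From the best quintile to the worst, the middle segment held 44.0%, 35.5%, 25.0%, 28.6% and 34.5% of the II peaks. On the other chromosomes it held 37.9%, 21.7%, 24.3%, 28.8% and 36.7%. The lowest share was in quintile 3 on II and in quintile 2 elsewhere, and on II quintile 2 was slightly above the worst quintile. No test of the difference between II and the other chromosomes was made.

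Replicate overlap in the middle segment was 44 of 98 peaks in both lists (44.9%, 35.4 to 54.8), against 79 of 200 in the outer segments (39.5%, 33.0 to 46.4). The difference was 5.40 points (−6.33 to 17.2; Fisher's exact test, adjusted p = 0.58), and it was −1.23 points when the middle 50% of the span was taken as the centre (Fisher's exact test, adjusted p = 0.93). In the best 50% of each list it was 16.3 points, with 50.0% in the middle segment and 33.7% in the outer ones (−0.464 to 32.3; adjusted p = 0.22 by Fisher's exact test). The middle segment also held 23 of the 51 peaks in neither list (45.1%), and 23.9% of those in replicate 2 alone. It held 32.9% of all II peaks. On the other chromosomes it held 35.8% of the peaks in neither list and 27.3% of those in replicate 2 alone. These differences were not tested.

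The span was also cut into 10 equal bins, numbered from the left. The first bin, the leftmost 1527 kb, was the densest and had no strong peak. It held 41 peaks, or 26.9 per Mb, against 12.4 to 24.2 per Mb in the other bins. Of these peaks, 18 were in the tight runs described below and 23 were not. None was in the best quintile, which allows a share of up to 7.32% by the limit of 3 counts (3 of 41) and up to 8.57% by the Wilson interval, both for counting error only, and the best ranked 473. Of the 41, 29 (70.7%) were in quintiles 2 and 3. On the other chromosomes, 21 of 199 first-bin peaks were in the best quintile. These were 9 of 47 on X, and on the other autosomes 3 of 29 (I), 3 of 31 (III), 5 of 52 (IV) and 1 of 40 (V). Few strong peaks in the first bin were thus not particular to II among the autosomes. In this bin 12 of 41 peaks (29.3%, 17.6 to 44.5) were in both replicates, 23 in replicate 2 alone and 6 in neither. In the rest of II, 111 of 257 (43.2%, 37.3 to 49.3) were in both. Replicate 1 had 13 peaks in the first bin, where replicate 2 had 40. The first bin was singled out after its values were seen and was not tested.

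The sparsest part was next to it. Bins 2 and 3 had 15.1 and 12.4 peaks per Mb, and bin 4 had 24.2 per Mb, with 8 peaks in the best quintile and 19 in both replicates, the most of any bin in both respects. Bin 7 had the worst median rank (1454) and the narrowest median width (257 bp). The longest stretch with no series-wide peak was II:13112395-13596524, 484 kb between II:13112260-13112394 (rank 2117) and II:13596525-13596729 (rank 1964). It held no peak of either replicate. The median gap between neighbouring peaks on II was 30.2 kb, against 23.3 kb elsewhere, and 51 of 297 gaps were 100 kb or longer.

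**Figure D4:**
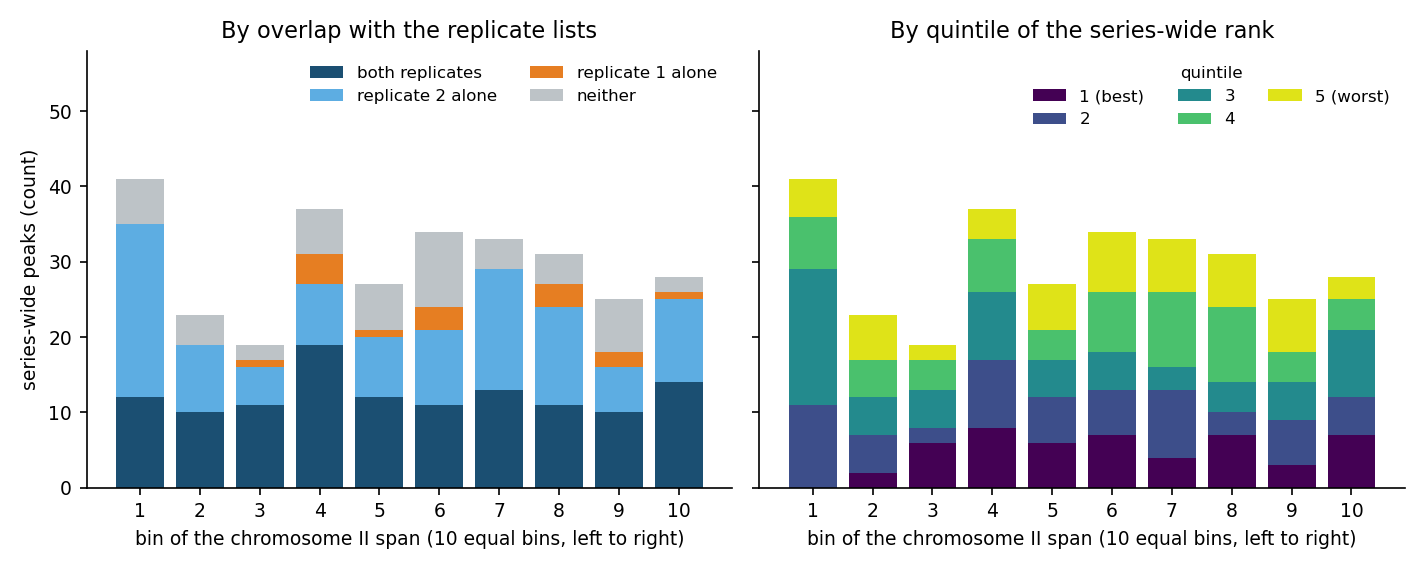
Number of series-wide peaks (y axis) in each of 10 equal bins of the chromosome II span from left to right (x axis), divided by replicate overlap in the left panel and by quintile of the series-wide rank in the right panel. The first bin holds 41 peaks with 0 in the best quintile, and the fourth holds 37 with 8 in the best quintile.

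A minority of II peaks came in tight runs. Of the 297 gaps between neighbours, 53 (17.8%) were 2 kb or shorter, against 251 of 1870 (13.4%) elsewhere, and none on II was shorter than 204 bp. By chromosome, the share of gaps of 2 kb or shorter elsewhere lay between 8.80% (I) and 16.0% (III). Runs of 3 or more peaks with such gaps numbered 10 on II (0.655 per Mb), between 0.265 (I) and 0.719 (V) per Mb on the other chromosomes. They held 41 of the 298 II peaks (13.8%, 10.3 to 18.1), beside 8.97% over the whole list, and 154 of 1875 (8.21%, 7.05 to 9.54) elsewhere. The difference was 5.55 points (1.85 to 10.1; Fisher's exact test, adjusted p = 0.018). It rests on 10 runs, whose peaks are not independent by construction, so the p is too small. Elsewhere the share of peaks in runs lay between 4.63% (X) and 11.8% (V), with 5.18% on I, 7.49% on IV and 10.8% on III. The call was lost against the other autosomes alone (9.29% in runs; Fisher's exact test, adjusted p = 0.15), with gaps of up to 5 kb (Fisher's exact test, adjusted p = 0.58) and in the list of replicate 1 (adjusted p = 0.58). It held with gaps of up to 1 kb (9.06% on II and 3.36% elsewhere; Fisher's exact test, adjusted p = 0.00031), in the list of replicate 2 (adjusted p = 0.045) and in the best 50% of the list (adjusted p = 0.0073).

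The runs lay in a few parts of the chromosome and were of middling strength. Of the 41 peaks in them, 18 were in the first bin (4 runs, 43.9% of its peaks), 13 in bin 7, 4 in bin 9 and 6 in bin 10. The other 6 bins had no run. Only 2 were in the best quintile, and the median rank was 1058, against 1198 for the 213 peaks with no neighbour within 2 kb. In both replicates were 16 of 41 run peaks (39.0%) and 87 of 213 single ones (40.8%). In neither were 1 of 41 run peaks (2.44%) and 46 of 213 single ones (21.6%), a difference that was not tested. It was not compared at like rank either. Of the 51 II peaks in neither list, 37 were in the worst quintile, where the only run peaks were those ranked 1763, 1820 and 1849.

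The longest run, II:10541996-10549431, had 6 peaks with centres a median of 1291.5 bp apart. Its best peak, II:10545013-10545494, had a −log10 value of 36.9 (rank 598) and was in both replicates, and the other 5 ranked between 1220 and 1849 and were in replicate 2 alone. II:1474874-1479483 had 5 peaks, with centres a median of 1034 bp apart, arranged likewise. Its middle peak, II:1477311-1478365, had 37.8 (rank 593) and was in both replicates, and the 4 around it ranked between 1101 and 1574 and were in replicate 2 alone. II:750193-755400 also had 5 peaks, a median of 1099 bp apart. Here 2 of them were in both replicates, II:751109-752244 (28.8, rank 658) and II:754143-754604 (24.1, rank 712). Between these 2 lay II:753546-753866 (21.3, rank 746), which was called in replicate 2 alone although its value was near that of II:754143-754604. In the first 2 of the 3 runs, a stronger peak stood among weaker neighbours that were called in replicate 2 alone. The third run did not have so clear a difference.

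Of the remaining 7 runs, 2 were picked for description after their values were seen. The run II:14801060-14804957, near the right end, had 3 peaks, all in both replicates. They ranked 517, 533 and 37, the last being the fourth best peak of the chromosome. All 4 peaks of the run II:12223979-12228070 were called in replicate 1, with −log10 values of 10.7, 10.3, 3.13 and 5.33. In replicate 2 the first had 3.54 and the last 5.55, and the middle 2 were not called. It was the one run on II with more replicate 1 peaks (4) than replicate 2 peaks (2). The widest replicate 1 peak of the chromosome reaches into this run from the left, and the best replicate 1 peak that replicate 2 lacks lies within it.

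**Figure D5:**
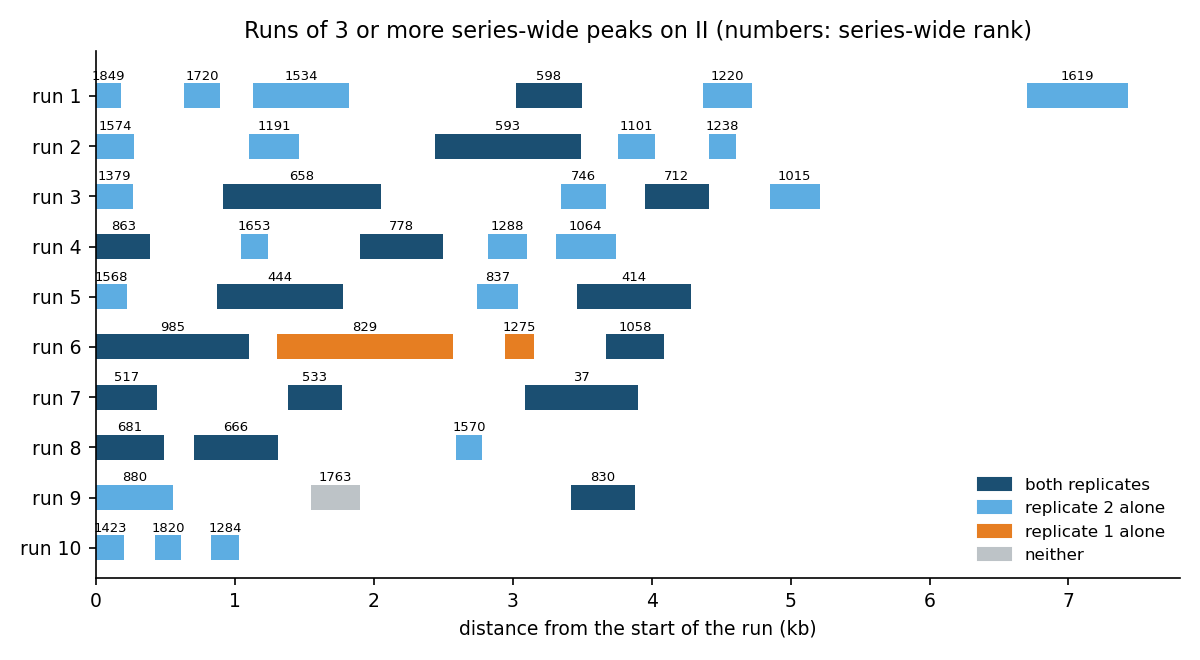
The 10 runs of 3 or more series-wide peaks on chromosome II, one per row, with distance from the start of the run on the x axis (kb); each bar is a peak drawn to its width, its colour gives the replicate overlap and the number above it its series-wide rank. Run 1 has 6 peaks, 1 of them in both replicates, and run 6 is the one with peaks in replicate 1 alone (2 of 4).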

How the data were processed

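Peak lists of 2 ChIP libraries and 1 series-wide list were used, together 3 files. The authors called peaks with PeakSeq on WormBase WS220, per the file headers and source field; the deposited value is a p-value or q-value per peak. The sources used here do not give the aligner, threshold, control library, depth or the making of the series-wide list. Gene positions of WS220 were not used; RefSeq's WBcel235 table gave only the names, types and chromosomes of genes.

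From these lists, peaks were ranked by value (ties by chromosome and start), and overlaps of at least 1 bp counted; counts equalled those of bedtools 2.31.1 for 4 pairs of lists. Overlap and run counting were tested on simulated data. A chromosome's span runs from 1 to the last base that a peak of any list covers there. A peak's place is its centre. Shares carry 95% Wilson intervals (a share of 0 also the limit of 3 counts) and differences Newcombe intervals, for counting error only. Tests were Fisher's exact, two-sided, threshold 0.05, with 6 main tests under Benjamini-Hochberg adjustment and 33 alternatives of them. The p of each alternative was adjusted with the main p-values of the other tests, and not across the alternatives. Depth is unknown, so no precision from reads can be given.

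Regions named are the 10 best and the 5 widest II peaks, the 5 best of each replicate with no overlap in the other, the best 3 in neither, the 3 most differently ranked and the 3 longest runs; others are said to be picked later. Members and lists were chosen with earlier results of these data known. Computations used scipy 1.17.1, numpy 2.4.6 and pandas 2.3.3 under Python 3.11.15, and figures matplotlib 3.10.9.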

Additional observations from a re-analysis of the deposited data

How the results depend on the processing

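Each tested share was recomputed under the alternatives that apply to it: an overlap of 50% of the smaller peak, peaks within 250 bp, the best 50% of each list, other autosomes only, another centre, gap or rank limit, and the list of 1 replicate used alone; counting runs within 2 kb once was added after the data were seen, as were the first 2 for the rank correlation. The causes of the changes below were not tested. Of 33 such values, 24 kept their direction and side of the threshold. The difference in the share found in both replicates turned to 5.17 points against other autosomes and to 0.563 with runs counted once. That in neither turned to −1.53 against other autosomes and −0.166 with the 50% overlap, that in the best quintile to 2.71 against other autosomes, and middle against outer segments to −1.23 with the middle 50% of the span; none of these passed its test on either side. The difference in runs no longer passed its test against other autosomes (4.47 points) and with gaps of up to 5 kb (2.69); from replicate 1's list alone it was 2.71 and from replicate 2's alone 4.87. In the best 50% of each list, several of these differences grew without passing or losing a call: to 5.86 points for the share in neither, −6.43 for that in both, 7.03 for the middle segment and 16.3 for middle against outer segments. Among values without a test, the share of replicate 1 peaks found in replicate 2 became 100% in the best 50% of the lists, and the difference in median width changed sign against other autosomes, to 4.50 bp, beside −17.5 bp against all other chromosomes; the intervals of these width differences were not computed. From the list of replicate 1 or 2 alone, the best-quintile difference was −1.01 or −2.99 points, the middle-segment difference 5.51 or 1.92, the difference in density (−2.57 in the series-wide list) −0.990 or −2.79 per Mb and that in median width −38.5 or −1.0 bp. Shares in both or neither replicate have no value without a replicate. No paired analysis was possible because the inputs that share replicate numbers with the ChIP libraries have no values here. Without read counts, weak peaks cannot be told from regions just below the caller's threshold.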
